A study of Mus musculus with 12 samples.

Results

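The mitochondrial respiratory chain is built largely from subunits whose genes lie in the nucleus, and these genes were followed through RNA sequencing of mouse embryonic stem cells. The genes were taken by symbol from the deposited table: Nduf genes of the a, b, c, s and v series for complex I, Sdha to Sdhd for complex II, Uqcr genes and Cyc1 for complex III, Cox4 to Cox8 genes for complex IV and Atp5 genes for complex V. Pseudogene symbols were left out. The rule found 85 of the 19716 genes in the table, of which 37 belong to complex I, 4 to complex II, 9 to complex III, 18 to complex IV and 17 to complex V.

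The cells were mouse embryonic stem cells (ESC) on gelatin in medium with serum and leukemia inhibitory factor, and all groups carried the same doxycycline-inducible transgene for HA-Flag-AGO2, a tagged form of the Argonaute protein that binds miRNAs. Nuclear RNA and total RNA were each sequenced with doxycycline (dox; 2.5 ug/ml, 15 h before harvest) and without it, which gives 4 groups for which the labels list 3 libraries each. The table gives group means only, and they rest on 10 of the 12 libraries: 3 for nuclear RNA with dox, 2 for nuclear RNA without, 2 for total RNA with dox and 3 for total RNA without. Neither the promoter that drives the transgene nor the number of cell clones is in the labels, and every group, the controls included, holds the transgene, so there is no group of cells without it. The labels do not say whether libraries came from separate cultures, so p-values measure only the spread between libraries, which may be technical.

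Electrons enter the chain from NADH at complex I and from succinate at complex II, pass through complex III and cytochrome c, and reach oxygen at complex IV. Complexes I, III and IV pump protons across the inner membrane, and complex V, the ATP synthase, uses the gradient to make ATP. In ESC, energy metabolism leans on glycolysis, but the chain is active. A few core subunits are encoded by mitochondrial DNA, and of 13 such mRNAs 0 were in the table, so all results concern nuclear genes.

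Both labels were checked first. Ago2, the transgene's gene, averaged 2.39 RPKM (reads scaled to transcript length and sequencing depth) in nuclear RNA with dox, 8.65 without, 3.43 in total RNA with dox and 9.12 without. It was thus lower in the dox-labelled columns (nuclear log2 difference -1.85, SE 0.166, limma adjusted p = 4.99e-07), which goes against the label. Nuclear-retained long noncoding RNAs, of which 7 of 7 were in the table, summed to 93 RPKM in the nuclear column with dox, 523 in the nuclear column without, 156 in the total column with dox and 682 in the total column without, and Malat1 alone made up 77.3, 467, 140 and 633 RPKM of these sums. Without dox 1 of the 7 was called higher in the nuclear column (Meg3, 9.42 against 6.84 RPKM, log2 0.46, adjusted p = 0.0475) and 1 lower (Malat1), with a median of -0.06 where that of all genes was -0.31; with dox 0 were higher and 2 lower, with a median of -0.39 where that of all genes was -0.32. These RNAs thus do not as a group mark the nuclear columns. Groups are called by the labels of their columns only. If the dox labels of the columns were exchanged, every dox direction below would turn, which the table alone cannot settle, and the sources used here do not say whether reads of the transgene were counted as Ago2. Of 10 ESC markers 10 reached 1 RPKM, with sums of 2541 and 903 RPKM in the nuclear columns with and without dox and 4223 and 1801 in the total columns. Dppa5a alone made up 1805, 617, 3387 and 1394 RPKM of these sums. In nuclear RNA 7 of the 10 were called higher with the dox label and 1, Tdgf1, lower (23.8 against 35.9 RPKM), where 43.1% of all tested genes were higher and 26.2% lower. With quantile normalization of the columns 2 of the 10 were higher and 6 lower (median log2 difference -0.51), against 34.8% and 29.6% of all genes. Of the fibroblast, endoderm and mesoderm markers in the table (3, 4 and 4 genes) 0 reached 1 RPKM, and of 4 neuroectoderm markers 2 did. Tubb3 was at 32.1 and 5.67 RPKM in the nuclear columns with and without dox and 20.2 and 5.02 in the total ones. Nes was at 1.06 and 1.18 RPKM in the nuclear columns and 2.13 and 1.98 in the total ones, with no dox difference called. Library depth, recovered from the step that 1 read makes in the means of genes with few reads, was 10.3 to 11.1 M reads in nuclear RNA with dox, 15.6 to 18.9 without, 11 to 11.8 in total RNA with dox and 15.3 to 16.9 without.

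Promoters of respiratory genes are known for sites of NRF1, of ETS-family factors such as GABP and of YY1, and since many of the genes moved together their promoters are shown here. RefSeq promoters (GRCm38.p6, from 250 bases before to 50 after the start) matched 66 of the 85 genes. The NRF1 letters, capitals in the first 5 windows below, read the same on both strands and occurred in 5 of 66 promoters (7.58%), against 2.63% of 7807 tested genes with a promoter and 1.07% of all 27025. The YY1 letters, capitals in the other 5 windows and searched on both strands, occurred in 5 of 66 (7.58%), against 2.84% and 0.995%. The ETS letters CCGGAAG, which neither of the other motifs contains, occurred on either strand in 24.2%, against 22.5% and 9.93%. The windows are 30 bases long and are written 5′ to 3′ on the strand of the gene. The NRF1 letters lie downstream of the RefSeq start in Uqcrc1 and upstream in the other 4 genes, and the YY1 letters lie upstream in Atp5j and downstream in the others.
Uqcrc1, chr9:108936668-108936697, plus strand: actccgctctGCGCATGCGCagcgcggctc
Ndufa11, chr17:56717692-56717721, plus strand: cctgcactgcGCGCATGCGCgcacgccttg
Atp5g2, chr15:102671070-102671099, minus strand: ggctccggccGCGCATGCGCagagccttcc
Cox6a1, chr5:115349101-115349130, minus strand: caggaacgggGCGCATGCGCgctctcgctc
Atp5k, chr5:108434430-108434459, minus strand: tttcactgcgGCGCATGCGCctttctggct
Ndufs7, chr10:80249463-80249492, plus strand: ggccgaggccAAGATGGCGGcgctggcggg
Ndufa9, chr6:126849096-126849125, minus strand: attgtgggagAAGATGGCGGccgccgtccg
Ndufs6, chr13:73328433-73328462, minus strand: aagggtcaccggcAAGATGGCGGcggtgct
Ndufs4, chr13:114388045-114388074, minus strand: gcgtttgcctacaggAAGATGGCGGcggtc
Atp5j, chr16:84835045-84835074, minus strand: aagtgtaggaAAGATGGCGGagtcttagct

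The respiratory chain genes were among the more abundant transcripts. Of the 85 genes 78 reached a mean of 1 RPKM in at least 1 column and were tested, and 77 of them did so in every column. The exception was Atp5s, at 0.418 and 0.368 RPKM in the nuclear columns and 0.711 and 1.05 in the total ones. Over the 78 the median level was 24 RPKM in nuclear RNA with dox, 10.8 without, 27.4 in total RNA with dox and 14.4 without, where the median of all 10197 tested genes was 2.89, 2.62, 3.73 and 3.27. Levels spread most within complexes IV and V. Complex IV ranged from Cox7a1 (2.54 RPKM in nuclear RNA with dox) to Cox4i1 (457 RPKM), and complex V from Atp5s to Atp5b (381 RPKM), while complex I ran from Ndufs4 (5.15 RPKM) to Ndufb7 (85.5 RPKM). The 7 genes below the limit were the tissue-restricted Cox4i2, Cox6a2, Cox7b2, Cox8b and Cox8c, the Ndufa4 relative Ndufa4l2, and Ndufs5, an accessory subunit that was listed at 0.000803 RPKM or less in every column.

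**Figure D1:**
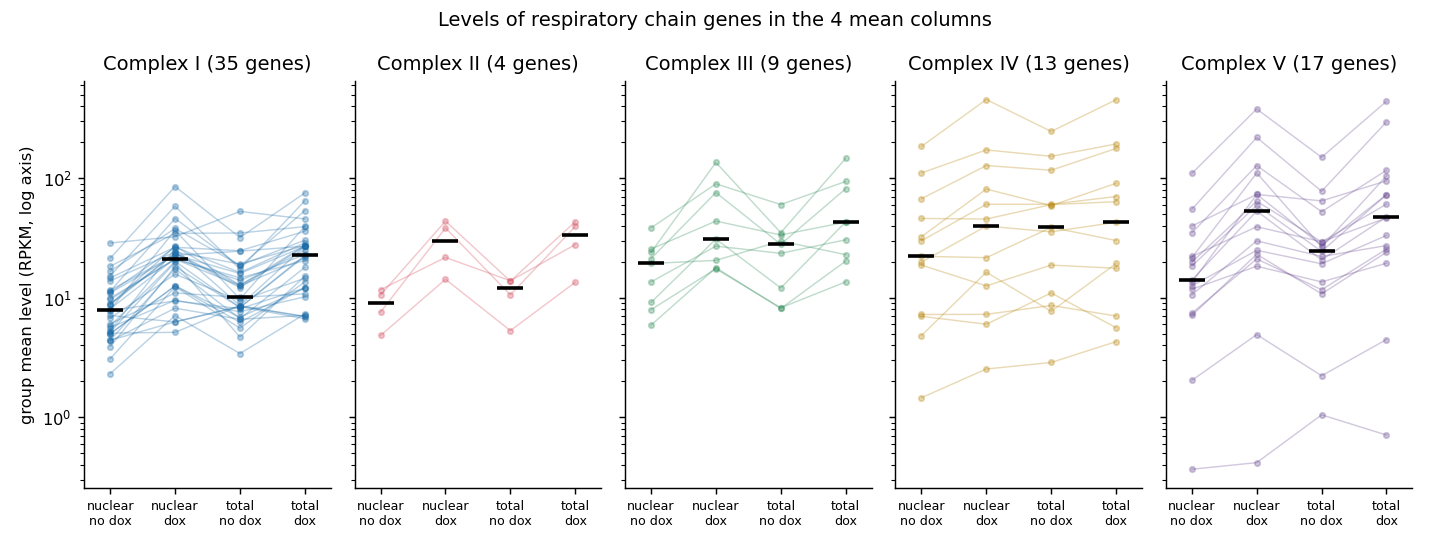
Group mean levels (RPKM, log axis) of the 78 tested genes in the 4 columns, by complex; each thin line is a gene and each black bar the median of the complex. The medians of all 5 complexes lie higher in the dox column of either fraction; in total RNA those of complex IV lie closest, at 38.9 and 42.9 RPKM, and in nuclear RNA those of complex III, at 19.4 and 31.1 RPKM, are nearer to each other than those of complex IV, at 22.3 and 39.9 RPKM.

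Most of the genes were higher in the dox-labelled columns. In nuclear RNA 67 of 78 were higher, 49 of them at least 2-fold, and 1 was lower (limma, adjusted p below 0.05 after Benjamini-Hochberg correction). Among all tested genes 43.1% were higher and 26.2% lower. The median log2 difference of the 78 was 1.27, a fold of 2.4, where that of all tested genes was 0.28. In total RNA 59 were higher, 33 of them at least 2-fold, and 2 were lower, against 41.5% and 22.8% of all genes, and the median was 0.78, where that of all genes was 0.26. Relative to these all-gene medians, 67 of the 78 lay above in nuclear RNA and 62 in total RNA. The 2 comparisons share no library, but both use the residual standard deviation pooled over the 4 groups. Both called 59 genes higher, and 8 were called in neither: Ndufa1, Ndufa4, Ndufa5, Ndufs4, Cox6c, Cox7a2, Cox7c and Atp5s. The shares of all genes called higher in both or called in neither are not set beside these counts here. By the q-values of the authors' deposited table, 67 of the 85 genes passed 0.05 for dox in nuclear RNA and 57 in total RNA, in either direction. The share of all genes that passed by q-value is not given here. By limma 7067 of all 10197 tested genes were called in either direction in nuclear RNA and 6555 in total RNA. In bulk RNA fewer cells of a type and less RNA per cell cannot be told apart.

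How the columns are scaled changed the balance between higher and lower calls. Scaling and trend removal acted on the group means only, and the residual standard deviation stayed that of the deposited values. Quantile normalization of the 4 columns left 37 genes higher and 14 lower in nuclear RNA, and 28 higher and 23 lower in total RNA, while the median stayed above 0 (0.36 and 0.07). In nuclear RNA this was 47.4% higher and 17.9% lower, against 34.8% and 29.6% of all genes under that setting, whose median was 0.09. Removing the trend on transcript length left 41 higher and 10 lower in nuclear RNA and 34 higher and 15 lower in total RNA, and removing the trends on length and GC content 41 and 6, and 34 and 12. Centring each column on its median, by contrast, left 65 higher and 1 lower in nuclear RNA and 53 and 5 in total RNA. All genes were then 38.2% higher and 29.9% lower in nuclear RNA, with a median of 0.14. For total RNA and for the trend removals the all-gene shares are not set beside these counts here. By complex, the nuclear and total medians of complexes I, II, III and V were above 0 under each of these settings, and those of complex IV fell below 0 under 3 of them.

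**Figure D2:**
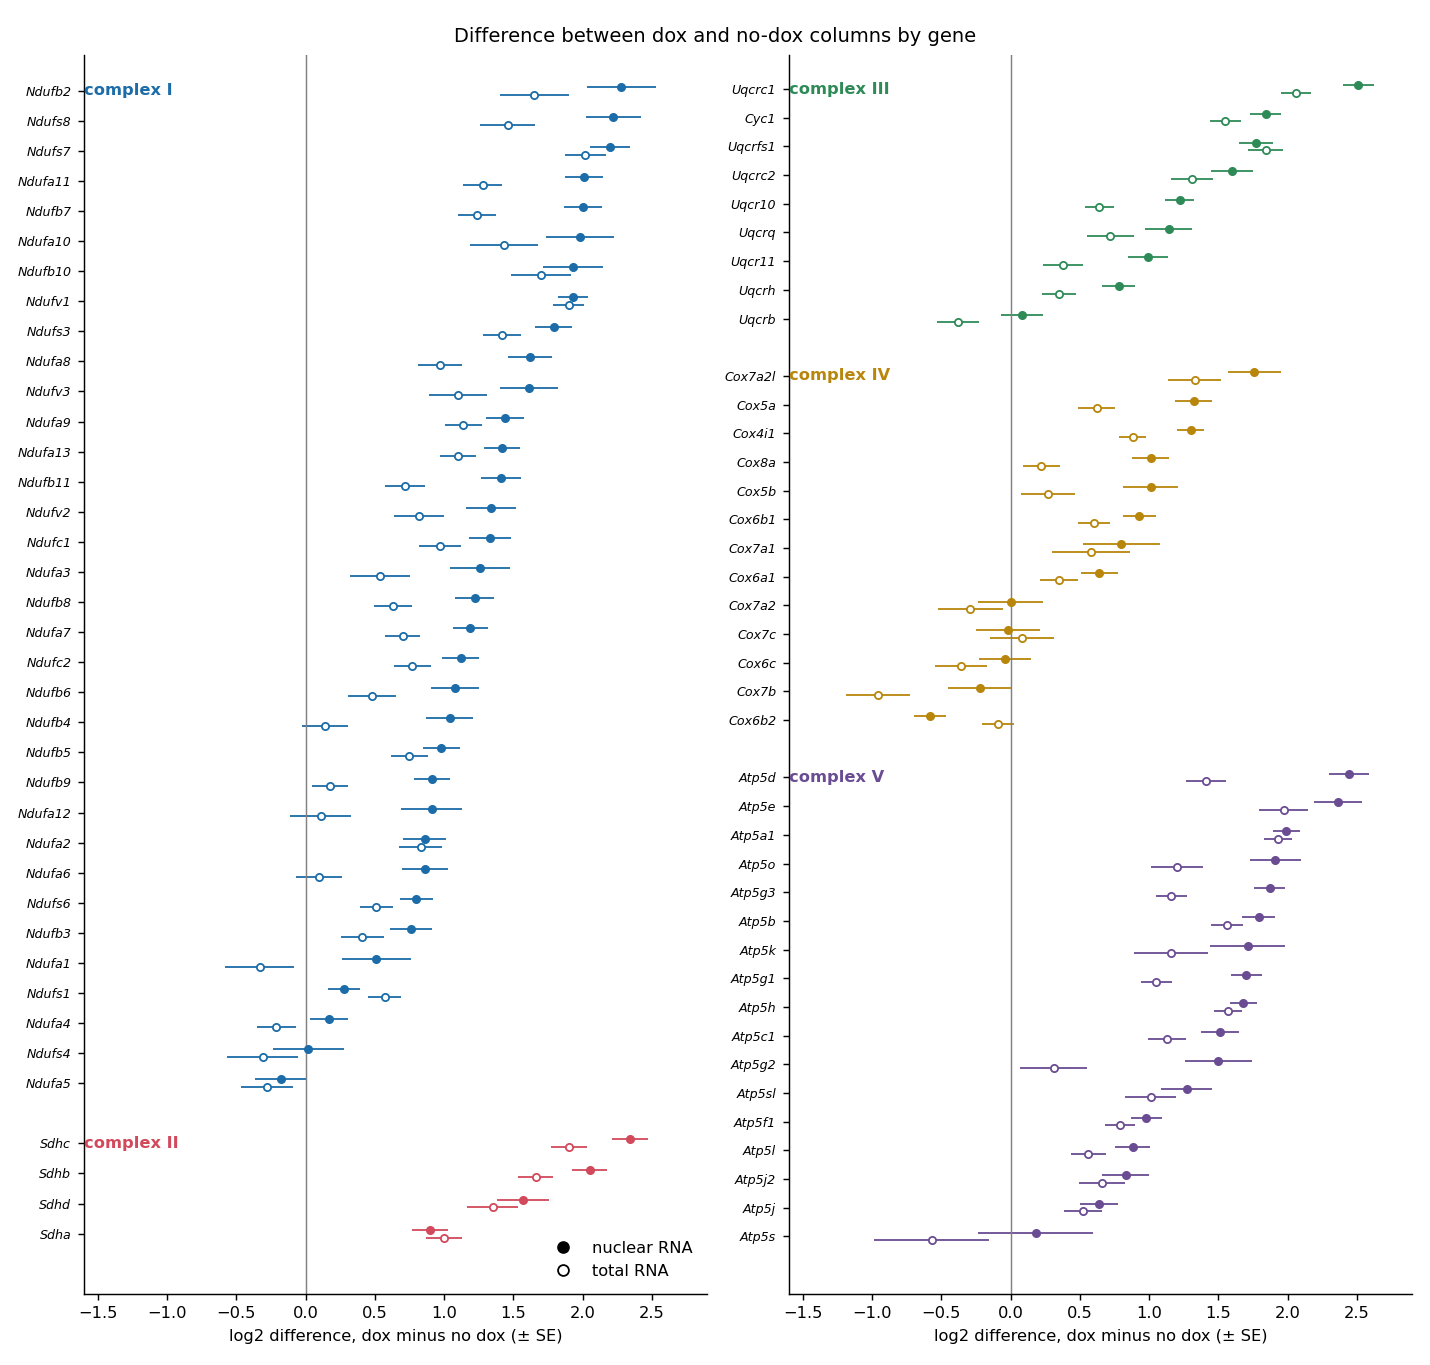
Log2 difference between the dox and no-dox columns for the tested genes, with 1 gene not shown, in nuclear RNA (filled) and total RNA (open), with bars of 1 standard error from the limma fit, sorted within each complex by the nuclear value. Most points lie right of 0 in both fractions, from Uqcrc1 at 2.51 down to Cox6b2 at -0.58 in nuclear RNA, and complex IV holds 4 of the 5 genes whose nuclear value is below 0.

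Complex I, which oxidises NADH, was higher for 31 of 35 tested genes in nuclear RNA and for 27 in total RNA, with 0 lower and medians of 1.26 and 0.77. Quantile normalization brought 3 and 7 lower calls. The nuclear-encoded core subunits, which carry the flavin and the iron-sulfur clusters, were all higher in both fractions, with medians of 1.93 and 1.46 over 7 genes. Ndufs7 (chr10:80249121-80256794, plus strand, mm10), which holds the last iron-sulfur cluster of the chain of clusters, averaged 36.7 RPKM in nuclear RNA with dox and 7.97 without, and 39.6 and 9.78 RPKM in total RNA. Its dox-labelled columns were 4.6-fold higher in nuclear RNA (log2 2.20, SE 0.145, limma adjusted p = 3.22e-08) and, in total RNA, 4.04-fold higher (log2 2.02, adjusted p = 1.2e-07). Ndufs8 stood at 18.3 and 3.91 RPKM in the nuclear columns with and without dox and at 22.8 and 8.3 RPKM in the total ones, 4.67-fold and 2.74-fold higher.

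Ndufs3, another core subunit, was at 20.2 and 5.83 RPKM in nuclear RNA and 22.3 and 8.32 RPKM in total RNA, 3.47-fold and 2.68-fold higher. Ndufv1, which binds NADH and the flavin, was at 58.4 and 15.3 RPKM in nuclear RNA and 64.9 and 17.4 RPKM in total RNA. These values give nearly the same fold in both fractions, 3.82 and 3.73. Its partner Ndufv2 had a smaller difference, at 12.6 and 5 RPKM (2.53-fold) in nuclear RNA and 12.1 and 6.89 RPKM (1.76-fold) in total RNA, where its call ended with quantile normalization and with the length trend removed.

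Ndufs1 (chr1:63143596-63176833, minus strand), the largest core subunit, stood apart from the other core genes. Its columns were at 9.44 and 7.79 RPKM in nuclear RNA and at 12.1 and 8.13 RPKM in total RNA. The nuclear difference was small (log2 0.28, SE 0.116, limma adjusted p = 0.0479), passed the threshold narrowly, and turned to -0.42 with quantile normalization. In total RNA it was 1.49-fold higher (adjusted p = 0.000788; 0.00 and not called after quantile normalization), and it was the only complex I gene whose dox difference was smaller in nuclear than in total RNA (difference -0.29, adjusted p = 0.485, so not called).

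The accessory subunits, which surround the core and are needed for assembly and stability, were higher for 24 of 27 in nuclear RNA (median 1.19) and 20 in total RNA (median 0.72). Ndufb2 led them, at 25.8 and 5.33 RPKM in nuclear RNA and 27.1 and 8.62 RPKM in total RNA (4.85-fold and 3.14-fold higher). Ndufb7, the highest complex I gene with dox, was at 85.5 and 21.4 RPKM in nuclear RNA and 75.5 and 32 RPKM in total RNA, 3.99-fold and 2.36-fold higher. Ndufv3, the lowest without dox, was at 7.1 and 2.32 RPKM in nuclear RNA and 7.33 and 3.42 RPKM in total RNA, 3.06-fold and 2.14-fold higher, with the total call lost when either trend was removed. At the other end, Ndufa5 was at 6.29 and 7.12 RPKM in nuclear RNA and 7.02 and 8.53 RPKM in total RNA (log2 -0.18, adjusted p = 0.414; log2 -0.28, adjusted p = 0.208), and 3 settings for nuclear RNA and 4 for total RNA called it lower. Ndufs4, an accessory subunit whose loss causes Leigh syndrome in humans, was at 5.15 and 5.07 RPKM in nuclear RNA and 6.93 and 8.61 RPKM in total RNA, not called in either. Ndufa1, the lowest of the complex in total RNA with dox, was at 6.3 and 4.42 RPKM in nuclear RNA and 6.69 and 8.44 RPKM in total RNA, and was not called either. Ndufa4, placed in complex I by its symbol and since described with complex IV, was the highest without dox, at 32.5 and 28.8 RPKM in nuclear RNA and 45.8 and 52.9 RPKM in total RNA, not called (adjusted p = 0.279 and 0.205). Genes with the YY1 letters printed above thus spread from Ndufs7 at 2.20 to Ndufs4 at 0.02, and those with the NRF1 letters from Uqcrc1 at 2.51 to Cox6a1 at 0.64.

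Complex II, succinate dehydrogenase, which also belongs to the tricarboxylic acid cycle and is encoded wholly in the nucleus, was higher for 4 of 4 genes in both fractions, with medians of 1.81 and 1.50. Its membrane anchor Sdhc (chr1:171127165-171150603, minus strand) averaged 38.5 RPKM in nuclear RNA with dox and 7.61 without, and 39.6 and 10.6 RPKM in total RNA, which is 5.06-fold higher in nuclear RNA (log2 2.34, SE 0.131, limma adjusted p = 7.91e-09) and 3.73-fold in total RNA. The other anchor, Sdhd, was at 14.3 and 4.85 RPKM in nuclear RNA and 13.5 and 5.32 RPKM in total RNA, 2.96-fold and 2.55-fold higher. The iron-sulfur subunit Sdhb was at 43.9 and 10.6 RPKM in nuclear RNA and 43.4 and 13.8 RPKM in total RNA, 4.13-fold and 3.16-fold higher. The flavoprotein Sdha had the smallest difference, at 21.8 and 11.7 RPKM in nuclear RNA and 27.9 and 13.9 RPKM in total RNA (1.86-fold and 2-fold higher), and with quantile normalization its nuclear value was -0.01 and its total value, 0.28, was not called. In nuclear RNA without dox Sdha was the highest of the 4, and with dox Sdhb and Sdhc lay above it.

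Complex III, which passes electrons from ubiquinol to cytochrome c, was higher for 8 of 9 genes in nuclear RNA (median 1.22, 0 lower) and for 8 in total RNA (median 0.72, 1 lower). Uqcrc1 (chr9:108936633-108949623, plus strand, mm10), a core protein of the complex, had the largest nuclear difference of all 78. It averaged 136 RPKM in nuclear RNA with dox, 24 without, 147 in total RNA with dox and 35.1 without. The dox-labelled columns were 5.68-fold higher in nuclear RNA (log2 2.51, SE 0.109, limma adjusted p = 1.22e-09) and 4.18-fold higher in total RNA (log2 2.06, adjusted p = 1.31e-08). Uqcrc2, its partner, was at 17.9 and 5.91 RPKM in nuclear RNA and 20.3 and 8.15 RPKM in total RNA, 3.03-fold and 2.48-fold higher.

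Of the redox subunits, cytochrome c1 (Cyc1) was at 76.1 and 21.3 RPKM in nuclear RNA and 81.9 and 28.1 RPKM in total RNA, 3.58-fold and 2.92-fold higher. The Rieske iron-sulfur protein Uqcrfs1 was at 31.1 and 9.15 RPKM in nuclear RNA and 43.2 and 12.1 RPKM in total RNA, 3.4-fold and 3.58-fold higher. These 4 larger genes had medians of 1.80 in nuclear and 1.69 in total RNA. The 5 small accessory genes had medians of 0.99 and 0.38, which turned to -0.17 and -0.38 with quantile normalization and to -0.04 in total RNA with length and GC trends removed. Uqcrq, the lowest complex III gene in the dox columns, was at 17.5 and 7.96 RPKM in nuclear RNA and 13.6 and 8.26 RPKM in total RNA, 2.2-fold and 1.65-fold higher, and both calls ended with quantile normalization and with either trend removed (log2 down to 0.29 and 0.02). Uqcrb (chr13:66900617-66905378, minus strand), known as the ubiquinone-binding protein, ran against the rest. It was at 20.6 and 19.4 RPKM in nuclear RNA (log2 0.08, adjusted p = 0.644) and at 23 and 29.9 RPKM in total RNA, where it was lower with the dox label (log2 -0.38, SE 0.151, adjusted p = 0.0408). That call ended with no low-value filter, with no variance moderation and with length and GC trends removed, and 43.4% of the 50-base stretches of its transcript also occur in other genes, most of them pseudogenes.

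Complex IV, cytochrome c oxidase, had the smallest medians of the complexes, with 8 of 13 tested genes higher and 1 lower in nuclear RNA (median 0.80) and 5 higher and 1 lower in total RNA (median 0.27), and its direction depended on the scaling. In total RNA the share higher, 38.5%, was near the 41.5% of all genes, and the median near their 0.26. The medians were -0.64 and -0.78 with quantile normalization (2 genes higher and 8 lower in nuclear RNA), -0.04 and -0.30 with the length trend removed, and -0.04 and -0.40 with length and GC trends removed. Cox4i1, a regulatory subunit and the most abundant of the 78 genes, averaged 457 RPKM in nuclear RNA with dox, 185 without, 455 in total RNA with dox and 247 without. This is 2.47-fold higher in nuclear RNA (log2 1.30, SE 0.0986, limma adjusted p = 1.09e-07) and 1.84-fold in total RNA, but -0.63 and -0.62 on the log2 scale after quantile normalization, and uncalled at 0.09 and -0.01 with length and GC trends removed. Cox5a was at 81.4 and 32.5 RPKM in nuclear RNA and 90.9 and 59.2 RPKM in total RNA, 2.5-fold and 1.53-fold higher, with log2 values of 0.01 (not called) and -0.41 after quantile normalization. Cox5b was at 39.9 and 19.9 RPKM in nuclear RNA and 42.9 and 35.7 RPKM in total RNA. It was 2.01-fold higher in nuclear RNA (adjusted p = 0.000511) and not called in total RNA (log2 0.27, adjusted p = 0.255), and quantile normalization gave -0.04 and -0.60.

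The largest nuclear difference of complex IV was that of Cox7a2l, which is known for joining complexes III and IV into supercomplexes. It was at 16.4 and 4.84 RPKM in nuclear RNA and 19.4 and 7.71 RPKM in total RNA, 3.39-fold and 2.51-fold higher. Cox7a1, the heart and muscle isoform and the lowest tested gene of the complex, was at 2.54 and 1.46 RPKM in nuclear RNA and 4.3 and 2.88 RPKM in total RNA. Its nuclear call (log2 0.80, SE 0.281, adjusted p = 0.022) ended with no low-value filter, with centring, with no variance moderation and with either trend removed. Cox7b (chrX:106015700-106022450, plus strand), a small subunit, was at 6.02 and 7.01 RPKM in nuclear RNA (log2 -0.22, adjusted p = 0.41) and at 5.63 and 11 RPKM in total RNA, where it was lower with the dox label (log2 -0.96, SE 0.231, adjusted p = 0.00253). Cox6c, Cox7a2 and Cox7c, small subunits around the core, were called in neither fraction, with nuclear values of -0.04, 0.00 and -0.02.

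Cox6b2 (chr7:4751792-4753094, minus strand, mm10), known as the testis isoform of subunit 6b, was the only gene lower with the dox label in nuclear RNA. It averaged 12.6 RPKM in nuclear RNA with dox and 18.8 without, and 17.7 and 18.8 RPKM in total RNA. The nuclear difference was -0.58 (SE 0.116, adjusted p = 0.000544) and the total one -0.09 (adjusted p = 0.517), and the difference between these was not called (-0.50, adjusted p = 0.208). Quantile normalization and either trend removal called the total value lower as well, down to -0.83. None of the 50-base stretches of its transcript occurs in another gene.

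Complex V, the ATP synthase, was higher for 16 of 17 genes in nuclear RNA (median 1.68) and 15 in total RNA (median 1.13), with 0 lower. With quantile normalization the medians were 0.55 and 0.24. The rotary F1 part, where ATP is made, had medians of 1.99 and 1.56 over 5 genes, and of 0.68 and 0.55 after quantile normalization. Its delta subunit Atp5d (chr10:80138632-80145818, plus strand) averaged 73.4 RPKM in nuclear RNA with dox, 13.5 without, 72.9 in total RNA with dox and 27.5 without, 5.43-fold higher in nuclear RNA (log2 2.44, SE 0.143, limma adjusted p = 1.15e-08) and 2.65-fold in total RNA. The alpha subunit Atp5a1 was at 220 and 55.1 RPKM in nuclear RNA and 297 and 78 RPKM in total RNA, 3.99-fold and 3.81-fold higher, but its nuclear value was 0.15 on the log2 scale and not called after quantile normalization. The catalytic beta subunit Atp5b, the most abundant gene of the complex, was at 381 and 110 RPKM in nuclear RNA and 442 and 150 RPKM in total RNA, 3.46-fold and 2.95-fold higher, with -0.21 on the log2 scale in nuclear RNA and an uncalled 0.13 in total RNA after quantile normalization. The gamma subunit Atp5c1, the central shaft, was at 21.2 and 7.44 RPKM in nuclear RNA and 25.6 and 11.7 RPKM in total RNA, 2.85-fold and 2.19-fold higher.

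The peripheral stalk, which holds the F1 part still, had medians of 1.33 and 0.99 over 4 genes, with Atp5o (1.91 in nuclear RNA) and Atp5h (1.68) above Atp5f1 (0.98) and Atp5j (0.64). The small membrane subunits had medians of 0.88 and 0.66 over 3 genes, which turned to -0.24 and -0.15 with quantile normalization. Atp5s, whose place in the enzyme the symbol does not give, was not called (log2 0.18, SE 0.416, adjusted p = 0.71), and its standard error was the largest of the 78. Atp5sl, also of uncertain place, was at 4.93 and 2.04 RPKM in nuclear RNA and 4.48 and 2.23 RPKM in total RNA, 2.42-fold and 2.01-fold higher.

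In complexes I, III and V the genes of the core or catalytic part had the larger median difference. Complex II went the other way, with nuclear and total medians of 1.47 and 1.33 for its 2 catalytic genes and 1.95 and 1.62 for its 2 membrane anchors. In complex V the F1 part is set against the small membrane subunits. Its c ring (1.70 and 1.05) and peripheral stalk (1.33 and 0.99) lay between these. Over the 9 settings, core minus accessory medians of complex I ran from 0.58 to 0.80 in nuclear RNA and from 0.58 to 0.79 in total RNA. For complex III they ran from 0.70 to 1.05 and from 0.99 to 1.32, and for the F1 part against the small membrane subunits of complex V from 0.91 to 1.51 and from 0.70 to 1.03. Centring shifts all genes of a column alike and variance moderation leaves the log2 values as they are, so these settings could not change the differences. The groups are small and were compared without a test. They also differ in length, and the values by length below are for whole complexes and for all tested members together, not for these groups. The part of length in these differences was not tested beyond removing its trend over all genes.

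Subunits with several gene copies allowed a view of which copy supplies the RNA. The c ring, the rotor of the ATP synthase, is encoded by Atp5g1, Atp5g2 and Atp5g3, which make the same mature protein. Atp5g3 was the highest, at 128 and 35 RPKM in nuclear RNA with and without dox and 117 and 52.6 RPKM in total RNA. Atp5g1 was at 64.5 and 19.9 RPKM in nuclear RNA and 60.9 and 29.4 RPKM in total RNA. Atp5g2 was at 30 and 10.6 RPKM in nuclear RNA and 27.4 and 22.2 RPKM in total RNA. Atp5g3 thus made up 57.6% of the summed level in nuclear RNA with dox, 53.5% without, 57.1% in total RNA with dox and 50.5% without, and Atp5g2 13.5%, 16.2%, 13.3% and 21.3%. By limma the dox-labelled columns were 3.66-fold, 3.24-fold and 2.82-fold higher in nuclear RNA for Atp5g3, Atp5g1 and Atp5g2. In total RNA Atp5g3 (2.23-fold) and Atp5g1 (2.07-fold) were called and Atp5g2 was not (log2 0.31, adjusted p = 0.28). The nuclear call of Atp5g2 ended with quantile normalization and with either trend removed, and the total calls of Atp5g3 and Atp5g1 (0.15 and 0.24) with quantile normalization.

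In complex IV the widely expressed copy supplied nearly all of the RNA for subunits 4, 6a, 7b and 8. Cox4i2, Cox6a2, Cox8b and Cox8c stayed at 0.292 RPKM or less in every column and Cox7b2 at 0.479 RPKM or less. Subunit 6b was the exception. Cox6b1 was at 128 and 67.5 RPKM in nuclear RNA and 178 and 117 RPKM in total RNA (1.9-fold and 1.52-fold higher), and Cox6b2 made up 8.91% of their sum in nuclear RNA with dox, 21.8% without, 9.02% in total RNA with dox and 13.8% without. Among the Cox7a genes, Cox7a2 stayed between 7.05 and 8.64 RPKM in the 4 columns while Cox7a2l moved, so that Cox7a2l was 62.5% of the sum in nuclear RNA with dox, 35.7% without, 63% in total RNA with dox and 40.1% without. Shares carry no test, since single libraries were not used here.

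**Figure D3:**
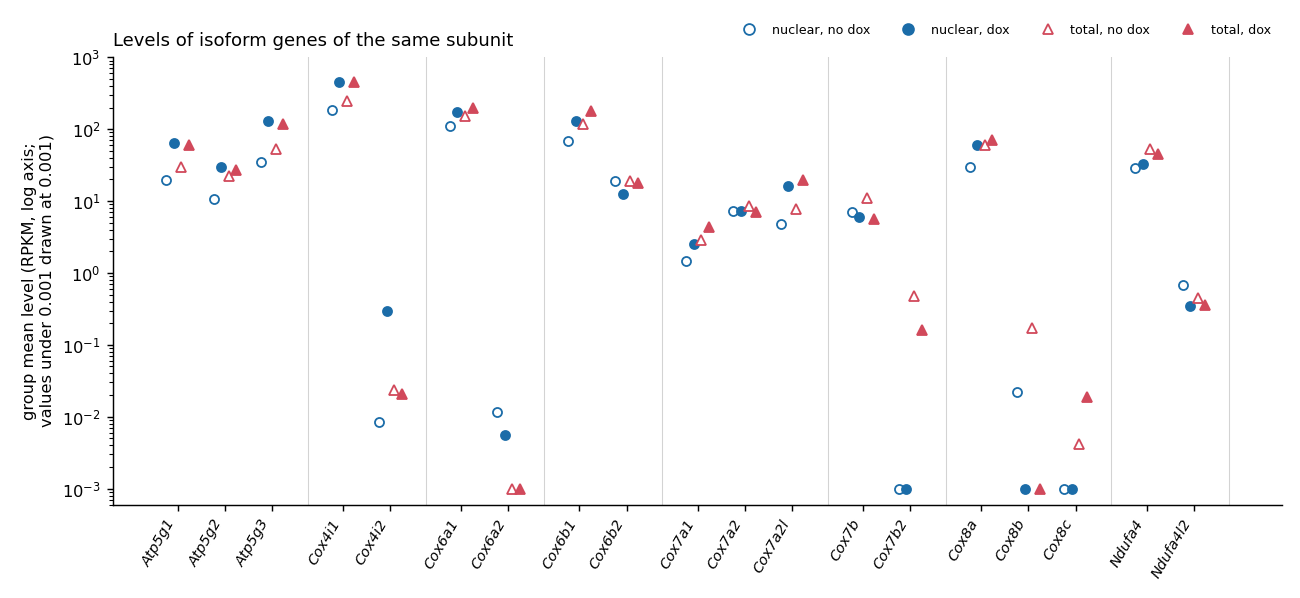
Group mean levels (RPKM, log axis) of gene copies for the same subunit in the 4 columns; circles are nuclear and triangles total RNA, filled with dox and open without, and values under 0.001 RPKM are drawn at 0.001. Atp5g3 lies above Atp5g1 and Atp5g2 in every column, Cox6b2 is lower with dox in nuclear RNA (12.6 against 18.8 RPKM), and 5 tissue-restricted copies lie below 0.5 RPKM throughout.

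The next question was whether the dox difference was larger in nuclear than in total RNA. It was so for 73 of the 78 genes, with a median of 0.40 on the log2 scale where that of all tested genes was 0.00, but limma called 0 of the 78 and 0% of all genes at an adjusted p below 0.05. At an unadjusted p below 0.05 there were 32 of the 78 and 1341 of all genes, and without variance moderation the count of the 78 was also 0. The largest difference was that of Atp5g2 (1.19, SE 0.341, adjusted p = 0.16) and the smallest adjusted p was 0.0776, that of Atp5d (1.03, SE 0.202). When only genes of at least 5 RPKM were tested, limma called 6 of 75: Atp5d, Atp5g3 (0.71), Cox8a (0.80), Ndufb4 (0.90), Ndufb9 (0.74) and Ndufb7 (0.76), with adjusted p from 0.0234 to 0.0489. These were larger in nuclear RNA. The share of all 4895 genes called at that limit is not given here, so the 6 cannot be read as particular to the respiratory genes. Medians by complex ran from 0.30 in complex II to 0.49 in complex I, and with the length trend removed from 0.00 in complex IV to 0.27. The 5 genes with a smaller difference in nuclear RNA were Ndufs1, Sdha, Uqcrfs1, Cox6b2 and Cox7c.

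Without dox the genes were lower in the nuclear than in the total column. By limma 57 of 78 were lower and 0 were higher, the median being -0.55, where 34.7% of all tested genes were lower, 4% were higher and their median was -0.31. In the dox-labelled columns 11 were lower and 0 were higher, the median being -0.12, where 34.9% of all genes were lower, 5.83% were higher and their median was -0.32. All-gene shares moved with scaling: higher genes made up 10.3% of calls without dox and 14.3% with dox, and between 42.6% and 54.7% when columns were centred, quantile normalized or freed of a length or GC trend. Centring the columns on their medians left 17 of the 78 lower and 0 higher without dox, and 13 higher and 0 lower with dox. Relative to the all-gene median, 15 of the 78 lay above it without dox and 63 with dox. The dox and no-dox columns enter both this comparison and that of the dox differences, so they are not separate evidence.

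Called lower without dox and not with dox were 49 genes, such as Atp5d, at 13.5 RPKM in the nuclear and 27.5 in the total column without dox (2.03-fold lower, adjusted p = 0.000128) and at 73.4 and 72.9 RPKM with dox (log2 0.01, adjusted p = 0.966). Ndufs8 was 2.12-fold lower in the nuclear column without dox (adjusted p = 0.000916), and with dox its difference was -0.32 (adjusted p = 0.221). Lower in both were 8 genes: Ndufa4, Uqcrfs1, Cox6b1, Cox7a1, Atp5a1, Atp5f1, Atp5h and Atp5l. The shares of all genes with these patterns are not given here, so neither count can be read as particular to the respiratory genes. Atp5a1 had -0.50 without dox (adjusted p = 0.00141) and -0.44 with dox (adjusted p = 0.00358). Cox6b2, Ndufs1 and Sdha were called lower with dox (-0.49, -0.36 and -0.36) and not called without, and their difference between the dox labels was not called. By complex the medians without dox were -0.54, -0.31, -0.46, -0.67 and -0.56 for I to V; that of complex II turned to 0.01 with centring and to between 0.08 and 0.12 with quantile normalization or a trend removed. With dox the medians were -0.11, -0.01, -0.11, -0.22 and -0.09, and each turned above 0 when the columns were centred on their medians.

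**Figure D4:**
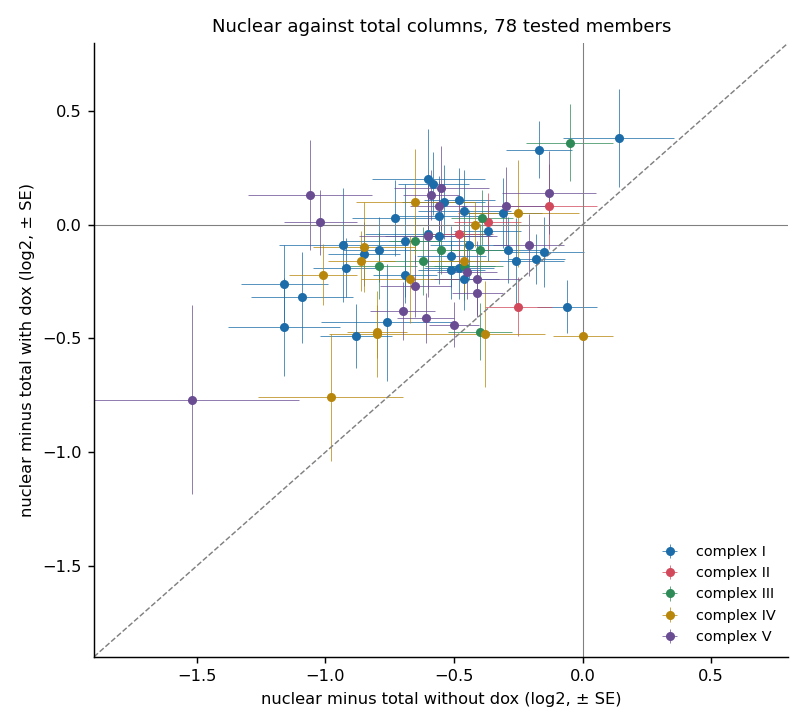
Log2 difference between the nuclear and total columns without dox (horizontal) and with dox (vertical) for the 78 tested genes, coloured by complex, with bars of 1 standard error and a dashed line of equality. Of the points 73 lie above the line, which is the same count as for the dox difference between the fractions, and Atp5s (-1.52, -0.77) has the widest bars.

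Genes that serve the chain without being subunits were counted next, beside the 43.1% higher and 26.2% lower of all genes in nuclear RNA and the 41.5% and 22.8% in total RNA. Assembly factors of complex I were higher for 10 of 15 and lower for 2 in nuclear RNA (median 0.84) and higher for 8 and lower for 1 in total RNA (median 0.81). They ran from Nubpl, which inserts iron-sulfur clusters (1.31 and 0.324 RPKM in nuclear RNA, log2 2.01, adjusted p = 0.00102), to Ndufaf4 (1.05 and 1.9 RPKM, log2 -0.86, adjusted p = 0.00284). Those of complexes II and III were higher for 6 of 8 and lower for 1 in both fractions. Uqcc2, needed for making cytochrome b, was at 10.8 and 1.86 RPKM in nuclear RNA and 6.76 and 3.58 RPKM in total RNA (nuclear log2 2.54, adjusted p = 5.63e-07), and Ttc19, which clears fragments of the Rieske protein, was at 0.959 and 2.81 RPKM in nuclear RNA and 1.24 and 3.14 RPKM in total RNA (nuclear log2 -1.55, adjusted p = 8.53e-05). Complex IV assembly factors were higher for 15 of 22 and lower for 2 in nuclear RNA (median 0.60), and higher for 12 and lower for 1 in total RNA (median 0.68). They ran from Coa4 (1.31 and 0.442 RPKM, log2 1.57) to Cox16 (1.08 and 4.53 RPKM, log2 -2.07, adjusted p = 8.61e-05). With the length trend removed the nuclear counts for complex I factors were 4 higher and 4 lower (median 0.02), and with length and GC trends removed those for complex IV factors were 5 higher and 7 lower (median 0.06). For complexes II and III the nuclear median was 0.46 at its lowest.

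Assembly and inhibitor genes of complex V were higher for 2 of 4 in nuclear RNA and 3 in total RNA, with 0 lower (medians 0.35 and 0.57, the former -0.23 at its lowest with a trend removed). Atpif1, the inhibitor of the ATP synthase, was at 13.4 and 7.46 RPKM in nuclear RNA (log2 0.84, adjusted p = 0.000123), and Atpaf1 at 4.14 and 3.88 RPKM (log2 0.09, not called). Of 5 tested subunits and carriers outside the symbol rule 5 were higher in nuclear RNA and 3 in total RNA, from the acyl carrier protein Ndufab1 (14.3 and 5.86 RPKM, log2 1.29) to cytochrome c, Cycs (4.15 and 2.88 RPKM, log2 0.52), with medians of 0.78 and 0.66, the latter -0.06 after quantile normalization and -0.03 with the length trend removed. Of 13 genes of the tricarboxylic acid cycle 10 were higher and 1 lower in nuclear RNA (median 1.34) and 11 higher and 0 lower in total RNA (median 1.39); after quantile normalization both medians were 0.70, with 10 higher and 2 lower in nuclear RNA. They ran from Suclg1 (17.2 and 4.09 RPKM, log2 2.07) to Dld (3.87 and 5.1 RPKM, log2 -0.40, adjusted p = 0.0338). Regulators of respiratory genes and of mitochondrial transcription were higher for 4 of 15 and lower for 3 in nuclear RNA (median 0.20) and higher for 3 and lower for 2 in total RNA (median 0.28), which is 26.7% and 20% higher, less than among all genes, with medians of -0.19 and -0.02 after quantile normalization and a nuclear one of -0.21 with length and GC trends removed. Esrra, a nuclear receptor that drives respiratory genes, was at 3.13 and 1.8 RPKM (log2 0.80, adjusted p = 0.00232), and Ssbp1, which coats mitochondrial DNA, had the smallest value (1.5 and 3.9 RPKM, log2 -1.38, adjusted p = 0.00015). Nrf1 itself was at 2.54 and 2.19 RPKM in nuclear RNA and was not called (adjusted p = 0.357).

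Transcript length and GC content went with the size of the dox difference across the table. Over 10145 genes the nuclear difference had a Spearman's rho of -0.46 with length and 0.49 with GC content, and the total difference one of -0.38 and 0.46. These are correlations across genes of the same libraries and are given as a description. The respiratory genes are short, with a median length of 913 bases against 2984 for all tested genes, and of similar GC content (51.4% against 50.5%). Complex IV genes were the shortest, with a median of 659 bases, and complex II genes the longest, with 2066. Within the 78 genes the rho with length had the other sign, 0.36 in nuclear and 0.44 in total RNA, while that with GC content was 0.40 and 0.31. In the tenth of shortest genes, which holds 49 of the 78, their median nuclear difference was 1.01 and that of all genes of the tenth 1.04. In the second and the third such class, with 12 and 9 of the genes, it was 1.50 and 1.79, against 1.03 and 0.80 for all. In total RNA these classes, from the shortest on, had 0.56, 1.12 and 1.43, against 0.70, 0.82 and 0.70 for all. In the shortest class the respiratory genes thus lay no higher than all genes in either fraction. By GC content, 6 of 12 genes below 46% were higher in nuclear RNA (median 0.23), 36 of 40 between 46% and 54% (median 1.18) and 25 of 26 at 54% or above (median 1.62). Of the 8 genes called in neither fraction 4 (Atp5s, Cox7c, Ndufa4 and Ndufs4) and of those lower in total RNA both (Cox7b and Uqcrb) were below 46%. In 10 classes of equal size by GC content, nuclear medians of the respiratory genes lay above those of all genes wherever both were taken. They were 0.08 against -1.28 in the lowest class, with 4 of the genes, and 1.46 against 0.90 in the highest, with 8. Class 3, with 2 of the genes, has no median for them. In total RNA the highest class had 0.74 against 0.75, and the other classes with both values lay above. The part of length and GC content in the differences was not tested beyond removing their trends.

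**Figure D5:**
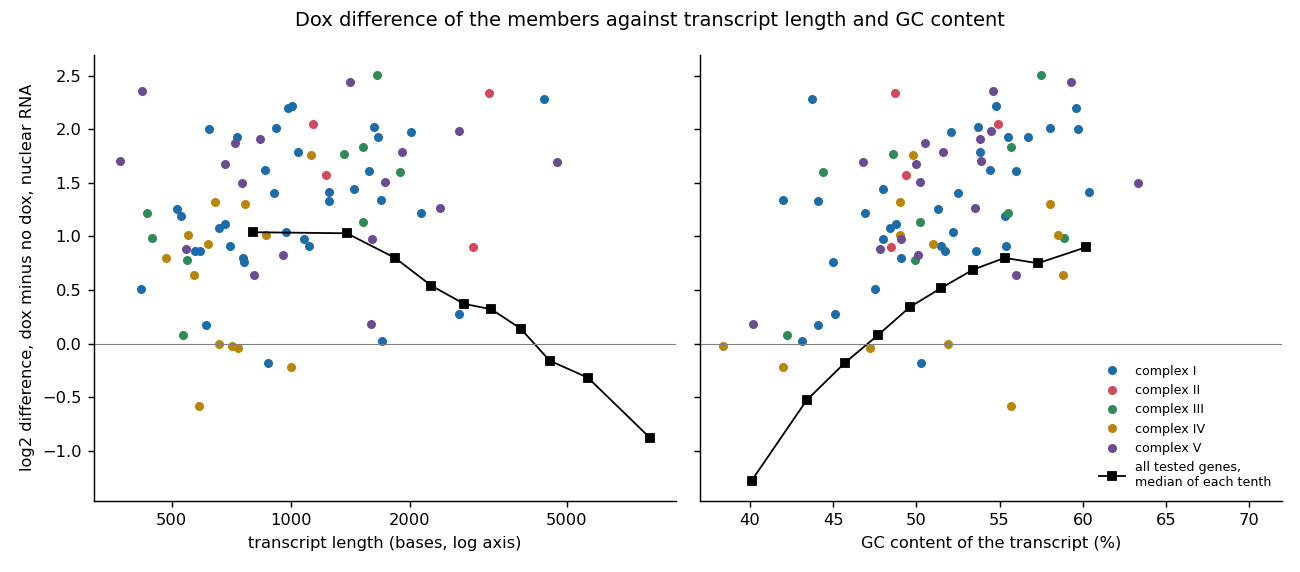
Nuclear log2 difference between the dox and no-dox columns against transcript length (left, log axis) and GC content (right) of the 78 tested genes, coloured by complex; black squares are medians of all tested genes in 10 classes of equal size. The all-gene medians fall with length from 1.04 to -0.88 and run from -1.28 in the lowest to 0.90 in the highest GC class, and the respiratory genes gather at the short end.

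Reads of a few genes may not be theirs alone. Of the 78 transcripts 35 shared no 50-base stretch with another gene, 28 shared up to 20% and 15 more than 20%. Dox-labelled nuclear RNA was higher for 28, 26 and 13 of these, with medians of 1.34, 1.26 and 1.04. Values of the 15, among them Atp5h, Atp5l, Cox5a, Cox7c, Ndufs3 and Uqcrb, are uncertain to the extent that reads of the sharing genes were counted there. These genes include pseudogenes for most of the 15, but none annotated as such for Ndufb6, Uqcrc2, Ndufb9 and Cox5b. Stretches were matched on both strands, so overlap with a gene on the other strand counts as sharing. Exons of Ndufb6 (39% of its length), Atp5o (35.6%) and Ndufa13 (30%) are overlapped by genes on the other strand, and the sources used here do not say whether counting used strand.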

How the data were processed

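RNA-seq of nuclear and total RNA from ESC was analysed from 1 deposited table. Per the labels' protocols ribosomal RNA was removed and strand was kept in the libraries. Tools and build given in the submitters' processing notes are TopHat, bcl2fastq 2.17.1 and mm10. Per the file headers the authors deposited group means of log2(RPKM + 0.001), and ANOVA p-values and q-values, a ratio and a signed fold change (a score) for each dox comparison; annotation, counting and use of strand are not given in the sources used here. The ratio equals the difference of the deposited log2 means within 5.4e-05.

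The design foresaw values of single libraries as one case and means as another. The table holds means, so the residual standard deviation of each gene was recovered from the 2 p-values: with 6 degrees of freedom both gave the same value within 0.001 for 99.96% of 16338 genes (3.04% with 5, 4.17% with 7). Which 2 of the 12 libraries stayed out is unknown. Printed means are geometric means, back-transformed, with no SD. limma 3.58.1 in R 4.3.3 fitted all 10197 genes with at least 1 RPKM in 1 group, with trended variance moderation (prior degrees of freedom 6.97 at the median), for 5 contrasts. P-values were adjusted by Benjamini-Hochberg over all these genes and called below 0.05. On simulated data of 10197 genes, with noise from the fitted model, 63% of genes changed by 1 in log2 and 91% of those changed by 2 were called in nuclear RNA, 4.35% of the nuclear calls were unchanged genes, and 0 calls were made in total RNA, which was simulated without change.

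The genes and lists were chosen with earlier results of these data known, so lists get counts and medians only. Named with values were the main core subunits, the largest and smallest nuclear difference and the highest and lowest level of each complex, genes called against the majority, and the extremes of the difference between fractions; further genes were named after their values were seen. Chromosome positions, lengths and GC content are from GENCODE for mm10, and promoters from RefSeq. Alternatives were 3 filters or pseudocounts, 4 scalings or trend corrections, no variance moderation, and medians without 4 genes of uncertain place. The scalings and trend corrections changed the group means and kept the recovered residual standard deviation. Calls under them therefore rest on a spread that was not measured on the rescaled values. The values of 1 gene, which is included in all counts and medians, are not reported here.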

Additional observations from a re-analysis of the deposited data

How the results depend on the processing

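No paired analysis was possible because the table holds group means, with no value for single libraries; for the same reason leaving out each library in turn was not run, so whether 1 library decides a value is not known. The median standard error of the 78 genes was 0.143, and the largest that of Atp5s, at 0.416; its dependence on depth was not tested. A pseudocount of 1 RPKM changed no count of calls by over 1.5 times, and with it 54 of the 57 calls for nuclear against total without dox remained. Leaving out 4 genes of uncertain place (Atp5s, Atp5sl, Cox7a2l and Ndufa4) was tried on the medians of the complexes only, not on counts of calls. All 25 of these medians moved by no more than the median residual standard deviation of the complex's genes. Requiring at least 5 RPKM gave 6 calls among 75 tested genes for the difference between fractions. With no low-value filter the nuclear median of complex IV was 0.32. With no variance moderation nuclear against total gave 35 calls without dox and 7 with dox. The cause of the changes below was not tested.

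Medians are given in the order nuclear dox difference, total dox difference, difference of these, nuclear against total without dox, and the same with dox, where they moved. After quantile normalization complex I had 0.45, 0.05, -0.16 without dox and 0.12 with dox; complex II 0.98, 0.88, a difference of 0.10, 0.12 without dox and 0.18 with dox; complex III 0.32, 0.13, a difference of 0.18, -0.10 and 0.04; complex IV -0.64, -0.78 and -0.35 without dox; and complex V 0.55, 0.24, a difference of 0.20, -0.11 and 0.13. Nuclear against total then gave 16 calls without dox and 3 with dox. Of 68 nuclear calls 37 remained in the same direction, and 30 of 61 in total RNA. Named genes that turned were Atp5b (-0.21), Cox4i1 (-0.63), Cox5b (-0.04), Ndufs1 (-0.42), Sdha (-0.01) and Uqcrb (-0.90) in nuclear RNA and Cox4i1 (-0.62), Cox5a (-0.41), Cox5b (-0.60) and the uncalled Atp5g2 (-0.47) in total RNA.

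With the length trend removed complex I had 0.37, 0.24, a difference of 0.27 and -0.12 without dox; complex II 0.85, 0.83, 0.04, 0.08 without dox and 0.23 with dox; complex III 0.59, 0.32, 0.19, -0.07 and 0.05; complex IV -0.04, -0.30, -0.00 and -0.24 without dox; and complex V 0.86, 0.57 and -0.19 without dox. Nuclear against total gave 13 calls without dox and 6 with dox. The named genes that turned were Cox5b (-0.04), Uqcrb (-0.75) and the uncalled Atp5s (-0.60) in nuclear RNA and Cox5a (-0.00) and the uncalled Atp5g2 (-0.39) and Cox5b (-0.47) in total RNA. With length and GC trends removed complex I had 0.38, 0.19, 0.28 and -0.12 without dox; complex II 0.76, 0.71, 0.07, 0.09 and 0.27; complex III 0.39, 0.13, 0.26, -0.08 and 0.07; complex IV -0.04, -0.40 and -0.21 without dox; and complex V 0.77, 0.46, 0.17 and -0.14 without dox. Nuclear against total gave 14 calls without dox and 6 with dox, and Cox7a1 (-0.14, nuclear RNA), Cox4i1 (-0.01, total RNA) and the uncalled Atp5g2 (-0.58), Cox5b (-0.40) and Cox7a1 (-0.03) in total RNA turned.

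Centring the columns left 66 of the 68 nuclear calls and moved total medians to 0.58, 1.31, 0.54, 0.08 and 0.94 in complexes I to V, turned the uncalled Uqcrb to -0.06 in nuclear RNA, and moved the nuclear median of complex III to 1.08. Nuclear against total without dox became -0.22, 0.01, -0.14, -0.35 and -0.24 in complexes I to V, with 17 calls, and with dox 0.26, 0.35, 0.26, 0.15 and 0.28, with 13 calls.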
